A study of Xenopus laevis with 4 samples.

Results

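The regions described here are stretches of chromosomes 6L and 6S of the frog Xenopus laevis that were bound by tagged ETS2. They were taken by chromosome name alone from the list of regions that the authors found in common between their chromatin immunoprecipitation (ChIP-seq) libraries. There were 5604 such regions, 3144 on 6L and 2460 on 6S, out of 61137 in the whole list (9.17%), of which 55441 lay on the 18 assembled chromosomes. The study has 4 libraries. Of these, 2 ChIP libraries were made with an antibody against the FLAG peptide, here called library 1 (A in the labels) and library 2 (C), and 2 input libraries (D and F) were made without antibody. All came from whole embryos at stage 11.5, mid-gastrulation, that had been injected with 750 pg of mRNA for ETS2 carrying 3 FLAG tags. Every library, inputs included, thus came from injected embryos, and the antibody saw the tagged copy and not the embryo's own ETS2. Whether the libraries came from separate clutches is not stated, and a ChIP from embryos without the tag was not analysed here.

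ETS2 belongs to the ETS family of transcription factors, which bind DNA through a conserved ETS domain and can be phosphorylated by the MAP kinases downstream of FGF receptors. FGF signalling is needed for the mesoderm of the frog gastrula. Xenopus laevis is an allotetraploid: its L and S subgenomes descend from different ancestral species, and most of its chromosomes come as a longer L and a shorter S version that carry many of the same genes in the same order. Such partners are called homeologous, and 6L and 6S are one of the 9 pairs. The pair thus gives a descriptive comparison of how tagged ETS2 was spread over partner chromosomes within the same embryos.

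Each of the 5604 regions held a peak of library 1 and a peak of library 2, and its bounds were the outermost bounds of the peaks inside. The lists hold a position and a value per peak and no reads, so the depth of the libraries is unknown and no interval below covers more than counting error. The intervals also count each region as independent, which neighbouring regions are not, so they can be too narrow. Positions are given as deposited, on a genome build that no source used here names, so no gene was assigned to a region and no sequence is shown. The length of a chromosome was taken as the end of its last peak in any list, at 155089385 on 6L and 128396780 on 6S, which makes 6L 1.21 times as long. No test across libraries was possible with peak lists, and regions of 1 chromosome are not replicates, so the comparisons below are descriptions without a p-value.

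ETS2 regions were slightly denser on 6L than on 6S, and sparse on both by the standard of the genome. There were 20.3 regions per Mb on 6L and 19.2 per Mb on 6S, a ratio of 1.06 (exact 95% binomial interval 1.00 to 1.12). The list of library 1 alone held 3515 peaks on 6L (22.7 per Mb) and 2769 on 6S (21.6 per Mb), a ratio of 1.05. The list of library 2 held 8219 peaks on 6L (53.0 per Mb) and 6670 on 6S (51.9 per Mb), a ratio of 1.02. All 3 lists were thus slightly denser on 6L, but the common list is drawn from the other 2 and is no separate support. Library 2 peaks that overlapped no library 1 peak were equally dense on both, at 32.7 per Mb each, and among regions above the median strength the ratio was 1.00. At a stricter limit, the regions in the highest 10% of both libraries, the ratio was 1.10 (exact 95% binomial interval 0.891 to 1.37). Among the 9 pairs this L to S ratio ranked 7 from the highest, and the others ran from 0.980 in pair 7 to 1.18 in pair 3.

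Ranked among the 18 chromosomes, 6L was number 13 and 6S number 17 in density from the highest, while the other 16 ran from 18.7 per Mb on 5S to 27.6 per Mb on 9_10L. The regions covered 1.05% of 6L and 0.997% of 6S. Of the library 2 peaks, 38.4% on 6L and 37.0% on 6S overlapped a library 1 peak, against 38.8% over all 18 chromosomes. The share on 6S was below that of each of the other 16 chromosomes (37.2 to 41.6%), but only just. It was 37.2% on 5S and 37.3% on 1S and 5L, and no interval was worked out for these shares. In the other direction, 97.0% of library 1 peaks on 6L and 96.8% on 6S overlapped a library 2 peak, so the list of library 1 set which regions were common.

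**Figure D1:**
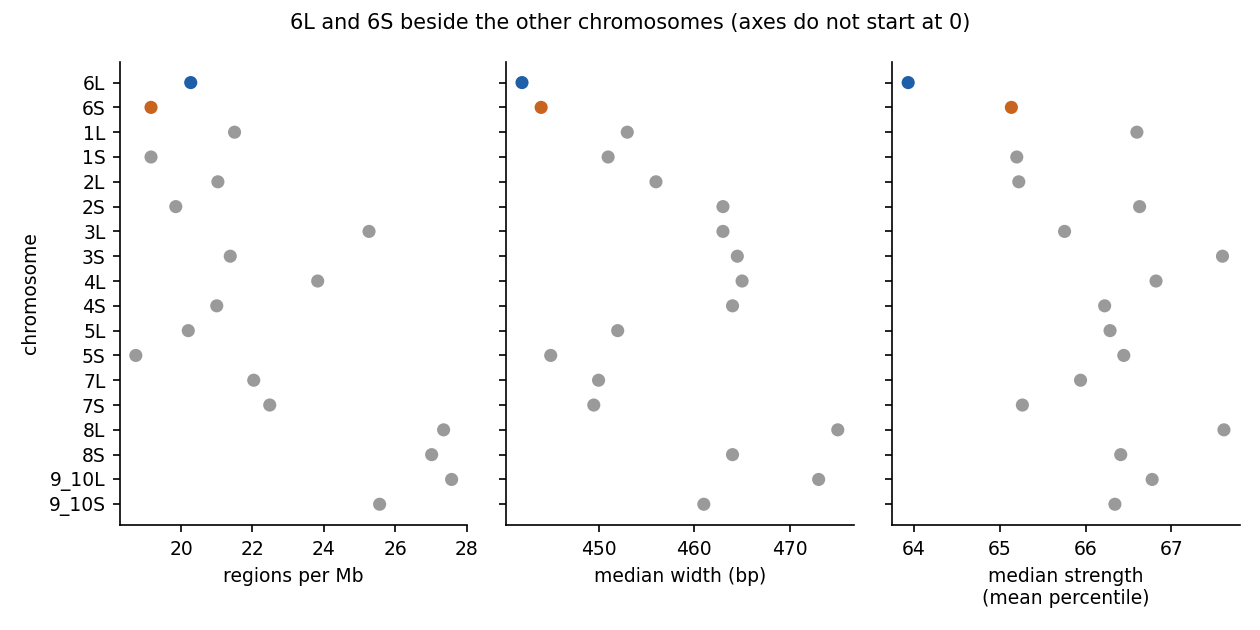
Regions per Mb, median width (bp) and median strength (mean percentile) of common ETS2 regions on 6L, 6S and the other 16 chromosomes, 1 point per chromosome, on axes that do not start at 0. 6L and 6S lie at the low end of width (442 and 444 bp) and strength (63.9 and 65.1), and low in density (20.3 and 19.2 per Mb).

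Regions on 6L and 6S had nearly the same spacing. The median distance from the end of a region to the start of the next was 20131 bp on 6L (interquartile range 5048 to 58965) and 22016 bp on 6S (4988 to 64354). Neighbours closer than 5 kb made up 24.8% on 6L (781 of 3143, exact 95% binomial interval 23.3 to 26.4%) and 25.0% on 6S (615 of 2459, 23.3 to 26.8%), near the 25.6% over all 18 chromosomes. Less than 1 kb separated 9.23% of neighbours on 6L and 9.11% on 6S. At the other end, 160 distances on 6L and 134 on 6S exceeded 200 kb. The curves of spacing for both chromosomes lay almost on top of each other.

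Widths were also alike. The median was 442 bp on 6L (interquartile range 347 to 617) and 444 bp on 6S (351 to 620), and the smallest was 139 bp on both. Regions wider than 1 kb numbered 172 on 6L (5.47%) and 140 on 6S (5.69%), against 5.56% in the whole list. These medians were the lowest and next lowest of the 18 chromosomes, of which the others had 445 to 475 bp. Library 1 peaks gave the same order, with medians of 218 bp on 6L and 219 bp on 6S and 220 to 232 bp elsewhere. In library 2 the median was 282 bp on 6L, where the others had 276 to 294 bp, and 276 bp on 6S, so the low rank of 6L in width was not seen there. The widest region of 6L spanned 3670 bp at 90943946 to 90947615, joined 5 peaks of library 1 under 1 peak of library 2, and was of middling strength. The widest of 6S spanned 2659 bp at 19834038 to 19836696 and joined 3 peaks of library 1. Regions that held several library 1 peaks made up 7.06% on 6L and 7.89% on 6S, against 7.64% in the whole list.

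The strength of a region is its mean percentile: the percentile, within each library's own list, of the highest peak value in the region, averaged over both libraries. The peak value is the authors' own. It is taken to be the −log10 of p or q, which the files do not say, and it grows with depth, so only ranks within a list were compared between libraries. The median strength was 63.9 on 6L (interquartile range 45.4 to 80.8) and 65.1 on 6S (47.2 to 81.7), and the other 16 chromosomes had 65.2 to 67.6. In library 1 alone the median percentile was 51.1 on 6L and 53.2 on 6S, and 51.6 to 56.5 on the others. In library 2 alone it was 79.0 on 6L and 80.2 on 6S, and 79.7 to 81.4 on the others. 6L was thus lowest of the 18 in each library, while 6S ranked 14 in library 1 and 10 in library 2, counted from the highest. Wider regions were stronger on both chromosomes (rank correlation 0.60 over 3144 regions on 6L and 0.57 over 2460 on 6S), where both quantities come from the same peaks.

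Strong regions made up a slightly smaller share on both chromosomes than in the whole list. Regions in the highest 10% of common regions in both libraries numbered 204 on 6L (6.49%) and 153 on 6S (6.22%), against 7.06% of the whole list. A strength of 99 or more was reached by 33 regions on 6L (1.05%) and 22 on 6S (0.894%), against 1.26% of the whole list. Both chromosomes were thus a little below the genome, which was not particular to them: 5S was lower on both counts (5.82% and 0.821%). The libraries ranked the regions alike to the same degree on both, with a rank correlation of peak values of 0.75 across the regions of each.

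**Figure D2:**
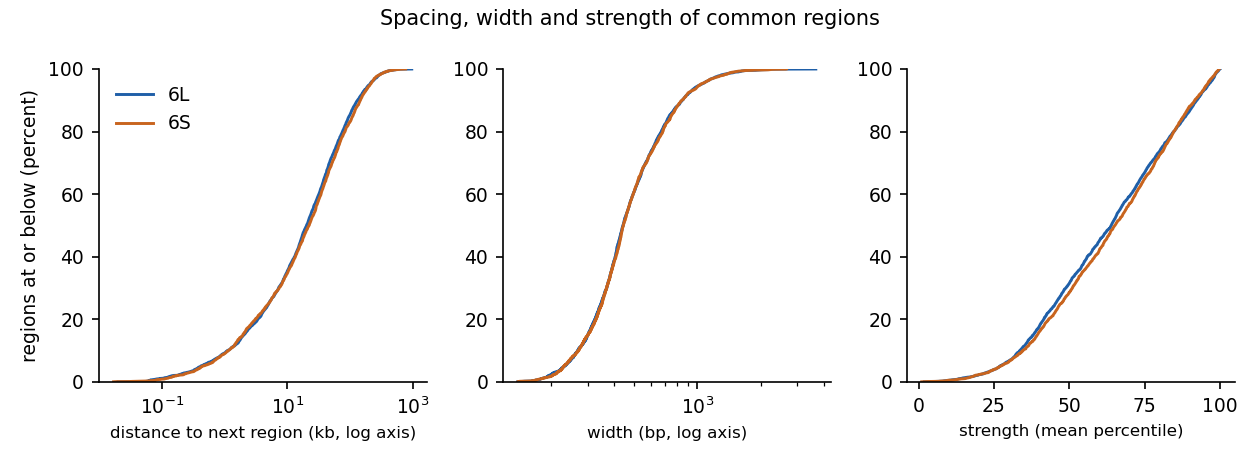
Cumulative share of common regions (percent) on 6L and 6S by distance to the next region (kb, log axis), width (bp, log axis) and strength (mean percentile). The curves of spacing and width nearly coincide, and that of strength lies slightly toward lower strength on 6L, with medians of 63.9 and 65.1.

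The few strongest regions of the pair lay on 6L. The top region of 6L, at 108370320 to 108371941 and 1622 bp wide, had peak values of 137 in library 1 and 269 in library 2 and ranked 3 in the whole list. It stood 124 kb from the previous region and 3.33 kb from the next. The others among the 5 strongest of 6L were at 120202525 to 120203164 (104 and 227 in libraries 1 and 2), at 3842869 to 3843809 (94.0 and 221), at 103436419 to 103437278 (92.1 and 209) and at 118364591 to 118366001 (89.0 and 207). All 5 thus had values near 90 or above in library 1 and above 200 in library 2.

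On 6S the strongest region lay at 35775353 to 35776217, with values of 84.5 and 201. It was followed by regions at 72778179 to 72779987 (79.7 and 196), 66916417 to 66917340 (71.9 and 263), 100979329 to 100980534 (84.0 and 171) and 82682923 to 82684571 (79.6 and 176). Among the 5, the region at 66916417 stands out, with the lowest value in library 1 and the highest in library 2. Of the regions of 6L, 9 had a higher mean percentile than the strongest region of 6S. The 100 strongest regions of the whole list included 4 from 6L and 0 from 6S. The 1000 strongest included 46 from 6L (4.6%) and 29 from 6S (2.9%), while the chromosomes held 5.14% and 4.02% of all regions, so both were below their share of the list. Per Mb, the ratio of 6L over 6S among the 1000 strongest was 1.31, with an exact 95% binomial interval of 0.808 to 2.17. Among the 5 strongest regions of each chromosome, that of 6L at 3842869 sat in a dense window, with 12 regions in its 100 kb, and the windows of the other 9 held 2 to 8 regions.

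Along the chromosomes, regions crowded at the start of both and thinned out between 30% and 40% of the length of both. In the first 10% of the length there were 28.3 regions per Mb on 6L and 26.6 per Mb on 6S, which was 1.46 and 1.45 times the density of the remaining length. Between 30% and 40% there were 14.4 per Mb on 6L and 12.7 per Mb on 6S, the lowest of the 10 equal parts of each chromosome. The list of library 1 alone gave 32.0 and 29.5 peaks per Mb in the first 10% of 6L and 6S, and 16.6 and 14.7 per Mb between 30% and 40%. The list of library 2 alone gave 68.9 and 69.4 per Mb in the first 10% of 6L and 6S, and 42.9 and 38.8 per Mb between 30% and 40%. The crowding at the start was thus in each list. For common regions it lay in the first 3% of the length and not over the whole first 10%, as the finer bins below show. The part between 20% and 30% was the next densest on both, with 22.6 regions per Mb on 6L and 25.8 per Mb on 6S. In the last 10%, 6L held 22.2 per Mb and 6S 17.8 per Mb. The strength was highest in the first 10% as well, with a median of 68.2 on 6L and 70.2 on 6S. It did not follow density throughout. On 6S the next highest median, 68.2, was in the sparsest part, between 30% and 40%, where that of 6L was 62.9.

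In 100 bins of equal relative length, 1.55 Mb on 6L and 1.28 Mb on 6S, the counts ran from 4 to 99 on 6L and from 4 to 94 on 6S. The second bin was the fullest on both. Bins 1 to 3 held 93, 99 and 66 regions on 6L and 73, 94 and 48 on 6S. Bins 4 to 10 held 15 to 41 on 6L and 7 to 29 on 6S, where the medians of all bins were 29 and 22. Bin 16 held 76 regions on 6L and 56 on 6S, and stood above its neighbours on both. The last bin held 83 on 6L and 42 on 6S. The rank correlation of the 2 profiles was 0.44 over the 100 bins, which share the libraries and, to an extent not known here, sequence that can be mapped. This was the highest of the 9 pairs, of which the others had −0.0063 to 0.35. The profile of 6L had rank correlations of −0.07 to 0.20 with the 8 other S chromosomes, and that of 6S had −0.15 to 0.11 with the 8 other L chromosomes. With 6S read from its other end the value was −0.02. It was 0.43 in the list of library 1 alone, 0.41 in that of library 2 and 0.30 for library 2 peaks that overlapped no library 1 peak. Without the first and last 10% of both chromosomes it was 0.28.

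The likeness was lower in finer bins. With 200 bins the rank correlation was 0.27. When 6L was divided into 38 blocks of 4 Mb and the counts in 100-kb windows of each were set against the same relative position of 6S, the median rank correlation was −0.0032 and 18 of the 38 were above 0. When each block was slid along 6S, it correlated best within 2% of its own relative position in 3 of the 38 cases, and within 5% in 6. The scan covered 1511 places, and how many blocks would fall so near without any likeness was not worked out.

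**Figure D3:**
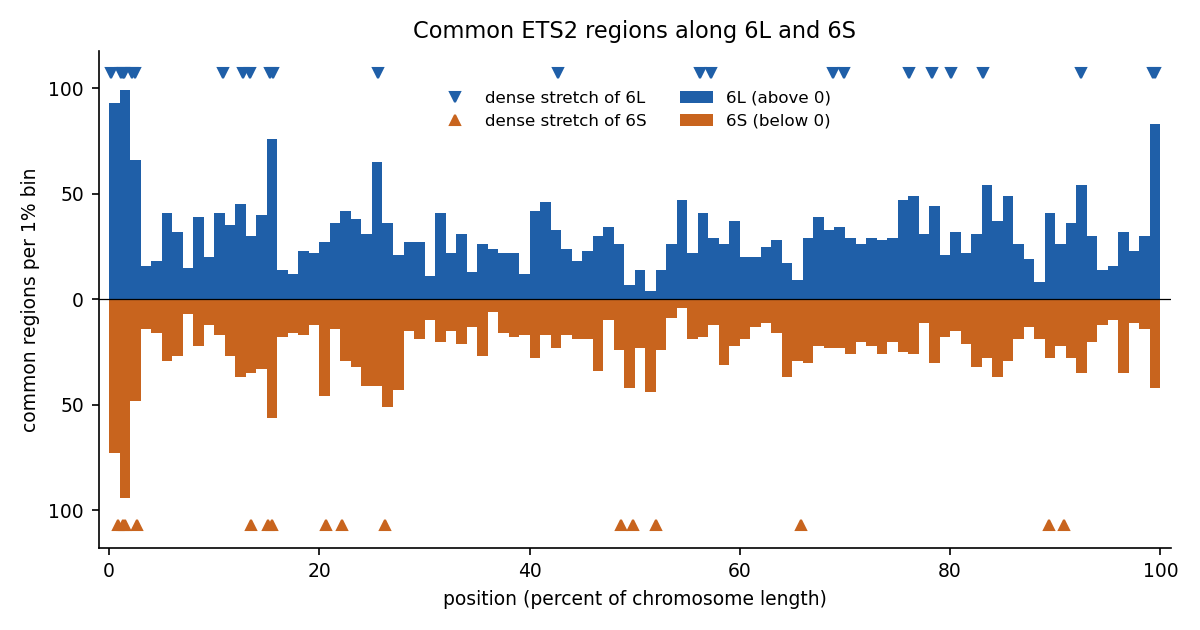
Common ETS2 regions in 100 bins of equal relative length on 6L (above 0) and 6S (below 0), with triangles at the dense stretches of each. Both chromosomes peak in the second bin (99 and 94 regions) and again in bin 16 (76 and 56).

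Dense stretches were defined as 100-kb windows with at least 10 regions, adjoining windows being joined. 6L had 26 such windows of 1551 (1.68%), in 24 stretches with 327 regions, and 6S had 17 of 1284 (1.32%), in 16 stretches with 224 regions. Over all 18 chromosomes 1.83% of windows were dense, so neither chromosome was rich in them. Windows without a region made up 28.2% on 6L and 28.4% on 6S, against 26.4% over all 18. Within a stretch the density was 4.93 to 12.8 times that of the chromosome on 6L and 5.22 to 14.1 times on 6S. The lower ends follow from the minimum of 10 regions per window. Regions in dense windows were a little wider than the rest, with medians of 478 against 438 bp on 6L and 479 against 440 bp on 6S. Their median strength was 62.4 against 64.1 for the rest of 6L and 70.0 against 64.6 for the rest of 6S. The libraries differed on 6L. In library 1 the median percentile was 52.7 in dense windows and 49.3 in windows with 1 region on 6L. On 6S these were 58.6 and 47.9. In library 2 they were 78.3 and 79.7 on 6L, and 81.0 and 80.8 on 6S. The lower strength in dense windows of 6L was thus not seen in library 1. The dense windows formed only 24 and 16 stretches.

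The richest windows of 6L and 6S lay at matching places. On 6L, 26 regions fell in 39600001 to 39700000, at 25.6% of the length, from 33 peaks of library 1 and 50 of library 2. On 6S, 27 regions fell in 33700001 to 33800000, at 26.3%, from 30 peaks of library 1 and 57 of library 2. The next region was a median of 1324 bp away inside the stretch of 6L and 1879 bp away inside that of 6S, and the regions covered 17.6% and 15.1% of the 2 windows. Most regions in them were of ordinary strength: the median was 60.9 on 6L and 66.9 on 6S, and the highest 93.4 and 88.5. Peak values in library 1 had a median of 9.82 on 6L (3.44 to 31.1) and 9.31 on 6S (2.49 to 21.3). In library 2 the median was 36.1 on 6L (4.93 to 92.7) and 34.5 on 6S (6.43 to 77.7). None of these regions was in the highest 10% of both libraries. The match was found under all 8 other ways of calling dense stretches that were tried. Windows this close in relative position match wherever both are still called dense, so this count shows how full they were. It does not test whether the places correspond. Over 4 Mb around the 2 windows, the counts per 100 kb had a rank correlation of 0.47 when the windows were set on top of each other, and this was the highest of 41 shifts of up to 2 Mb (the next was 0.31, the median 0.02). Both windows were picked as dense and are part of these counts, which favours the unshifted value. The scan is thus no independent support for the match.

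With adjoining windows joined, the other stretches rich in regions were one with 28 regions over 200 kb at 100001 to 300000 of 6L (0.129% of the length) and one with 27 regions over 200 kb at 1000001 to 1200000 of 6S (0.857%). Then came 24100001 to 24300000 on 6L, with 24 regions at 15.6%, and 63900001 to 64000000 on 6S, with 22 regions at 49.8%. The last of these had no counterpart, and had one in 1 of the 8 other settings, all of which called it. Near the same relative position, centred on 49.7% of the length, lay the longest distance of 6L without a common region. This ran 954 kb from 76659877 to 77614232. It held 15 peaks of library 2 and 0 of library 1. The same relative stretch of 6S, 790 kb long, held 38 regions. No sequence was aligned, so whether the same relative position is the homeologous place at this scale is not known.

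Most of the other long distances differed in this respect. The next of 6L were 821 kb long at 88.2% and 580 kb long at 51.9%, with 3 library 2 peaks in each, and the same relative stretches of 6S held 8 and 16 regions, or 11.8 and 33.3 per Mb, below and above its own mean of 19.2 per Mb. The longest of 6S were 763 kb long at 4.50%, 672 kb long at 52.9% and 612 kb long at 61.5%, with 20, 14 and 8 library 2 peaks. At the same relative stretches 6L held 7, 11 and 10 regions, or 7.59, 13.5 and 13.5 per Mb, below its own mean of 20.3 per Mb.

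Of the 40 dense stretches, 21 (52.5%) had a counterpart, which is a dense stretch of the partner whose midpoint lay within 2% of the same relative position. These were 12 of 24 on 6L and 9 of 16 on 6S. Over all 9 pairs 63.1% of stretches had one, and over the other 8 pairs 64.3%, so at these settings matching was no commoner on 6L and 6S than elsewhere. More stretches leave more chances of one within 2%. The other pairs held from 26 stretches (pair 5, 50% with a counterpart) to 58 (pair 9_10, 79.3%). In between, the share did not follow the number closely, with 52% in pair 3 (50 stretches) and 64.9% in pair 7 (37 stretches). Whether the number of stretches sets the share was not tested. The number on 6L and 6S depended on where the windows began: with the grid shifted by 50 kb, 35 of 43 stretches (81.4%) had a counterpart, against 59.9% in the other pairs. Of the 10 other settings tried, 4 put the pair above the other 8 pairs and 6 put it below. All 10 stretches in the first 5% of the chromosomes (6 on 6L and 4 on 6S) had one, and there a stretch lay within 2% of several. Beyond it 11 of 30 did. Between 30% and 95% of the length 2 of 16 did. These limits in position were not planned, and the same counts are not given for the other pairs. They therefore show nothing particular to 6L and 6S.

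**Figure D4:**
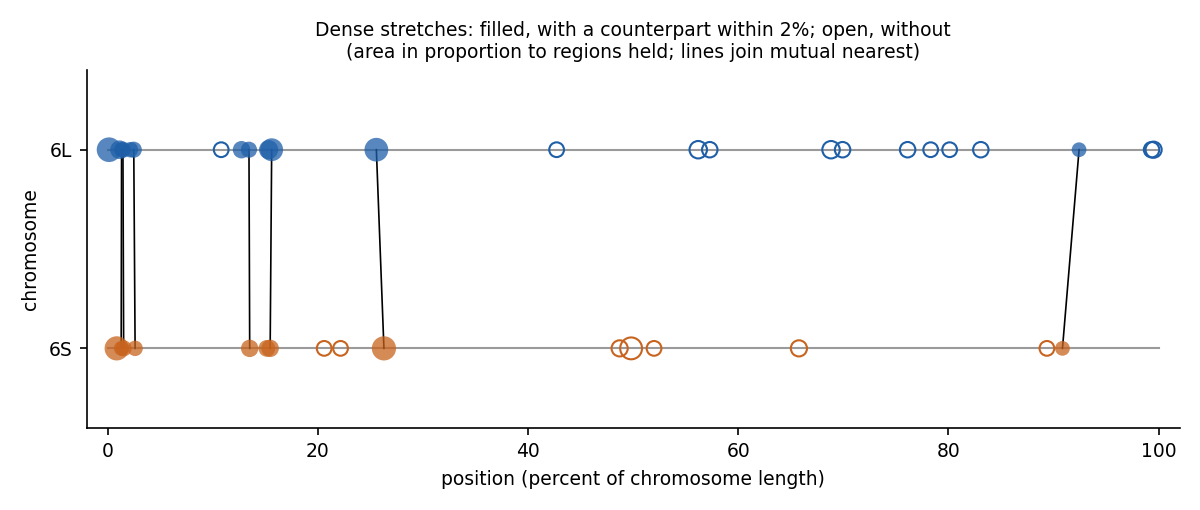
Dense stretches of 6L (top) and 6S (bottom) by position in percent of chromosome length. Circle area is in proportion to the number of regions, filled circles have a counterpart within 2%, and lines join the 7 pairs that were each other's nearest, of which 6 lie in the first 30% of the length.

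Each other's nearest stretch within 2% was found for 7 pairs, whose order along both chromosomes is fixed by that definition. These came from 40 stretches, and the number was not unusual. The other 8 chromosome pairs had from 6 (pair 5, with 26 stretches) to 15 (pair 9_10, with 58 stretches). Near the start, 2000001 to 2100000 on 6L (10 regions) matched 1600001 to 1700000 on 6S (10 regions), and 2200001 to 2300000 on 6L (12) matched 1900001 to 2000000 on 6S (12). Next, 3800001 to 3900000 on 6L (12) matched 3300001 to 3400000 on 6S (11). Further along, 20800001 to 20900000 on 6L (12) matched 17300001 to 17400000 on 6S (14), at 13.4% and 13.5% of the length. At 15.6% and 15.5%, the stretch at 24100001 to 24300000 on 6L (24) matched 19800001 to 19900000 on 6S (14). The richest windows formed the sixth pair. The last, 143300001 to 143400000 on 6L (10) and 116600001 to 116700000 on 6S (10), differed most in position, at 92.4% and 90.9%, and was matched under 3 of the 8 other settings. The other pairs apart from the richest were matched under 5 or 6 of the 8. These counts depend largely on whether both stretches were still called dense. In the scan of shifts over 4 Mb, the pair at 13.4% of 6L also correlated best unshifted (0.33, the next 0.32). The pair at 15.6% of 6L had 0.41 unshifted and 0.44 at a shift of −400 kb, and the pair at 2.48% had 0.44 unshifted and 0.67 at −300 kb. The last pair had −0.086 unshifted and 0.42 at 1300 kb, so the unshifted position gave the highest value for 2 of the 5 pairs scanned. With no shift, stretches picked as dense lie on top of each other, which favours the unshifted value. This count is therefore no independent support for the matches.

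Bin 16, full on both chromosomes, held a double stretch on each. On 6L a stretch of 17 regions at 23700001 to 23800000 preceded the one at 24100001 by 450 kb, from midpoint to midpoint. On 6S a stretch of 13 regions at 19400001 to 19500000 preceded the one at 19800001 by 400 kb. The second members were each other's nearest, but the first were not: the stretch at 23700001 lay 0.146% from the second member of 6S and about as far, 0.165%, from the first. Distances are in steps of the window grid, and the double stretch was picked out after its values were seen. The first members had median strengths of 70.8 on 6L and 71.3 on 6S, and the second had 66.0 and 51.0. The widest region of 6S and the widest region inside any dense stretch of 6L (2261 bp) both lay in the second members.

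Stretches made mostly of strong regions were found on both chromosomes, in part at matching places near the start. A median strength above 80 was found in 3 stretches of 6L and 3 of 6S, singled out after their values were seen. On 6L these were 2000001 to 2100000 (median 94.7), 3800001 to 3900000 (89.0) and 154300001 to 154400000 (86.7). On 6S they were 1600001 to 1700000 (90.2), 3300001 to 3400000 (90.2) and 28400001 to 28500000 (87.0). The first members of both lists were partners among the 7 pairs above, and so were the next. These lay in the first 5% of the length, within the 10% where strength was highest on both chromosomes. There the stretches had several counterparts each, 4 and 4 for those of 6L and 6 and 5 for those of 6S. The last stretch of each list had no counterpart as reported here. Under the 8 other settings, that of 6L had one in 4 of the 7 that called it, and that of 6S in 2 of 3.

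In the pair at 2.48% of 6L and 2.61% of 6S, 7 of the 12 regions on 6L and 7 of the 11 on 6S had a strength above 80. The stretch of 6L held 2 very strong regions, at 3842869 to 3843809 (94.0 in library 1 and 221 in library 2) and at 3861939 to 3862899 (90.8 and 197). The strongest of the 6S stretch, at 3355920 to 3356950, had 44.8 and 129. The highest values were thus those of 6L in both libraries, while the medians were close, with 27.0 on 6L and 24.4 on 6S in library 1, and 70.7 on 6L and 79.8 on 6S in library 2. In the pair at 1.32% of 6L and 1.29% of 6S, 8 of 10 regions on each had a strength above 80, with a median library 1 value of 33.0 on 6L and 26.5 on 6S and a median library 2 value of 116 on 6L and 71.2 on 6S.

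**Figure D5:**
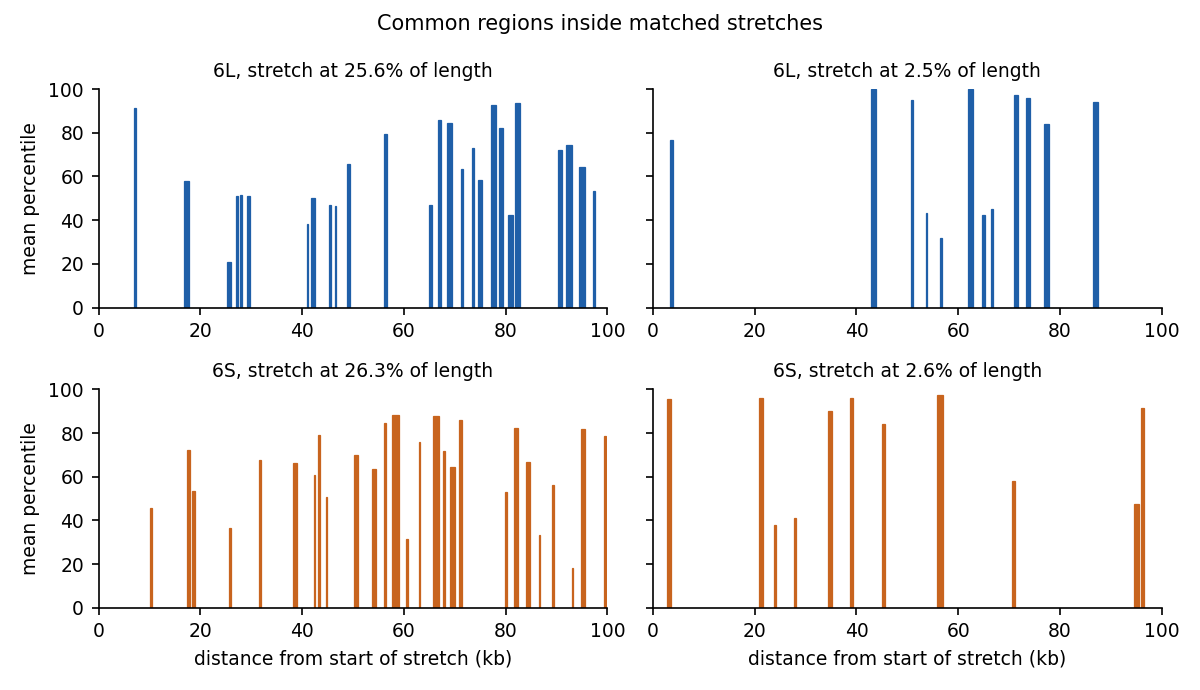
Common regions inside 2 pairs of matched stretches, by distance from the start of the stretch (kb); each bar spans a region and its height is the mean percentile. The richest pair (left, 26 regions on 6L and 27 on 6S) holds regions with mean percentiles of 20.7 to 93.4 and 18.4 to 88.5, and the pair near the chromosome start (right, 12 and 11 regions) holds 7 regions above 80 on each.

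With the windows and limits used here, stretches without a counterpart lay over most of both chromosomes. Of these 19, 16 had a counterpart under at least 1 of the 8 other settings, and 3 had none in any. Some of these settings gave most stretches a counterpart. With 50-kb windows 94.2% of all stretches of 6L and 6S had one, against 94.9% in the other 8 pairs. At a minimum of 8 regions 77.8% did, against 86.4%. The 16 of 19 is thus nothing particular to these stretches. Unmatched on 6L were 12 stretches, of which 9 lay between 42.7% and 83.1% of the length. They included 14 regions at 87100001 to 87200000, 14 at 106700001 to 106800000 and, next to the strongest region of 6L, 11 at 108400001 to 108500000. A pair of stretches at the far end of 6L, at 99.3% and 99.5%, lay 8.48% or more from any dense stretch of 6S, though they had a counterpart in 4 of the 5 and 4 of the 7 other settings that called them. Unmatched on 6S were 7, among them 12 regions at 62500001 to 62600000 and 12 at 84400001 to 84500000. Gene content and assembly gaps at these places were not analysed here.

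Dense stretches were also called in each library's own list. Overlap with these is partly built in, since every common region holds a peak of both libraries, so it is no independent support. When windows were called in each list at a minimum that gave about the same share of windows, 11 peaks in library 1 and 20 in library 2, 21 of the 24 stretches of 6L and 14 of the 16 of 6S met a dense stretch of library 1. In library 2 they numbered 17 of 24 on 6L and 9 of 16 on 6S.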

How the data were processed

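The authors deposited a peak list for each of the 2 ChIP libraries, each called with an input, per the labels, and a list of regions common to both. The submitters' processing notes name Bowtie2 2.2.3 and MACS2, without a role or settings. The value deposited with each peak by the authors has no header and is taken from its range (lowest 1.33 in library 1 and 1.31 in library 2) to be a −log10 p or q. The common list holds coordinates only, and no deposited list holds input values.

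Each region's highest overlapping peak value (overlap of at least 1 bp) was ranked within its library's list, and the 2 percentiles were averaged. Dense stretches were joined 100-kb windows with at least 10 regions, counted from the chromosome start. A counterpart had its midpoint within 2% of the same relative position. Chromosome length was the end of the last peak in any list. Named one by one were the 5 strongest regions, the widest region, the 3 richest stretches and 3 longest distances of each chromosome, and stretches with a counterpart. Unmatched stretches, stretches of strong regions and the double stretch were named after their values were seen. The members, limits and lists were chosen with earlier results of these data known. Scripts (Python 3.11.15, numpy 2.4.6, scipy 1.17.1, pandas 2.3.3, matplotlib 3.10.9) were tested on simulated data. No test was run, since a list gives 1 value per chromosome. Depth is unknown, and the binomial intervals cover counting error only, with neighbouring regions counted as independent.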

Additional observations from a re-analysis of the deposited data

How the results depend on the processing

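Of 70 recomputed values, 33 stayed within their limit, 36 moved and 1 reversed. The limits differed between results and are not given here, so these counts do not measure how stable the results were. A median strength on 6L of 51.1 in library 1 alone, against 63.9 as reported, counted as within its limit. A profile correlation of 0.43 in library 1 alone, against 0.44 as reported, counted as moved. The density ratio of 6L over 6S was 1.00 among regions above the median strength. Neighbours within 2 kb made up 14.9% on 6L and 15.4% on 6S, within 20 kb 49.9% and 48.4%, and among stronger regions within 5 kb 14.6% and 14.8%. With 1 ChIP library left out the share within 5 kb was 30.6 to 39.1% on 6L and 31.0 to 38.0% on 6S, and the median width 218 to 282 bp on 6L and 219 to 276 bp on 6S. Dense stretches numbered 88 on 6L and 66 on 6S with 50-kb windows, 2 and 3 with 200-kb windows, 48 and 33 at a minimum of 8 regions, and 12 and 9 at a minimum of 12. Stretches with a counterpart numbered 145, 4 and 63 with 50-kb windows, 200-kb windows and a minimum of 8, 35 with the grid shifted, and 11 beyond the first 5%. The profile correlation was 0.47 in 50 bins, 0.27 in 200 bins and 0.41 to 0.43 with 1 library left out. It was 0.30 for library 2 peaks that overlapped no library 1 peak, 0.37 for stronger regions and 0.28 without the ends. It was 0.35 without the densest 5% of bins and −0.019 with 6S read from its other end. The first-5% and other-end alternatives were chosen after seeing the data. Leaving out a library changes how peaks were selected as well as their number. The cause of the other shifts was not tested. No paired analysis was possible because the peak lists give no value for the inputs and no comparison between sample groups was made.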
